A study of Homo sapiens with 3 samples.

Results

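Interferon response and innate sensing genes were examined in ES01, BG03 and H9, which are 3 lines of human embryonic stem (ES) cells. The 45 genes were chosen by symbol (current or older), and 43 of them had at least 1 named probe on the array, with 52 probes in all, out of 16225 genes measured. STAT2 and IRF7 had no named probe and are not analysed here. Each line was grown on irradiated MEFs (mouse embryonic fibroblast feeders) in DMEM/F12 medium with KSR, a serum replacement, and FGF2, and carried no treatment or engineered allele that the labels name. Total RNA of each line was read on 1 Illumina bead array, so the lines form 1 group with n = 3 and no line has a replicate of its own. Mouse ES cells and epiblast stem cells, with which the study compared these lines, are not analysed here. Levels of these genes are therefore described in each line and differences between lines are given by size, without a test.

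Interferons are secreted proteins that warn cells of viral infection. Type I interferons signal through IFNAR1 and IFNAR2, interferon gamma through IFNGR1 and IFNGR2, and both receptor pairs use JAK family kinases to activate STAT proteins, with IRF9 and STAT2 forming part of the factor that binds the interferon-stimulated response element (ISRE). The genes switched on in this way encode proteins that block virus entry, degrade viral RNA or stop translation, while Toll-like receptors and the RNA helicases RIGI and IFIH1 detect microbial molecules and start interferon production. Pluripotent stem cells are known for a weak response to interferon and for steady expression of some interferon-stimulated genes.

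Promoters of 5 members are shown because they carry ISRE core matches while their genes differ in where they were read: IFITM1 and ISG15 were above background in every line, BST2 and MX1 differed between lines, and IFIT1 barely passed in 1 line. Each is the RefSeq promoter window (GRCh38.p14) of 300 bases on the strand of the gene, 250 before and 50 after its annotated start. The IFITM1 window is chr11:313790-314089 (plus strand), that of ISG15 chr1:1013247-1013546 (plus strand), that of BST2 chr19:17405581-17405880 (minus strand), that of MX1 chr21:41420308-41420607 (plus strand, the first of 3 MX1 windows) and that of IFIT1 chr10:89392373-89392672 (plus strand). Capitals mark the ISRE core, which is GAAA, any 2 bases and GAAA again, on either strand.
IFITM1: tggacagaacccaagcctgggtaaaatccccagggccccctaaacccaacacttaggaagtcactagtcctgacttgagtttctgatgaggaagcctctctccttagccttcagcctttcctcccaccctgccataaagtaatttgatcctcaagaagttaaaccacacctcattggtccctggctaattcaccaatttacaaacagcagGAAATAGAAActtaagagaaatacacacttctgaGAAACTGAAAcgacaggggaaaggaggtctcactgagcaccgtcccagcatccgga
ISG15: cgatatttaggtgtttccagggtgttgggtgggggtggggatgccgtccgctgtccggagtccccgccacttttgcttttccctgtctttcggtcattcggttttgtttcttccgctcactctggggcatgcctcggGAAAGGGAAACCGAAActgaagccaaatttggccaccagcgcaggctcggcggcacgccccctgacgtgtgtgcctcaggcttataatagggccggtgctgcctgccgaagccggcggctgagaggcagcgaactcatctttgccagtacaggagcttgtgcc
BST2: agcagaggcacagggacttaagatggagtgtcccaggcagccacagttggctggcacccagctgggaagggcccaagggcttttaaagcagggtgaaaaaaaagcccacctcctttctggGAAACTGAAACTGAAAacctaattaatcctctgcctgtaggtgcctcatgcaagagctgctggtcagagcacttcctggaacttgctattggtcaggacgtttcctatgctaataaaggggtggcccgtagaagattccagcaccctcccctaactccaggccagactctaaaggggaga
MX1: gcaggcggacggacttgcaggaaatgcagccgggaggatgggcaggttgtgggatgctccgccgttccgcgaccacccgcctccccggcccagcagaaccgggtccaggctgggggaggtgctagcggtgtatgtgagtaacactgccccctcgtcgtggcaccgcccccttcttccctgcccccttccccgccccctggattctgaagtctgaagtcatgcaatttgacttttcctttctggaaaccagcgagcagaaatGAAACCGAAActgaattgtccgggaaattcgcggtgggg
IFIT1: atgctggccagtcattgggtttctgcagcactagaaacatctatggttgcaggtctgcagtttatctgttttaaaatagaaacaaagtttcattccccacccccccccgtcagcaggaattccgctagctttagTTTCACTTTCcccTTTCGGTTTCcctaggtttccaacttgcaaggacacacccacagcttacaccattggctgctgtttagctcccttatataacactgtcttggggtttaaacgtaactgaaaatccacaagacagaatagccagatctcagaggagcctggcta

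The ISRE core was found in promoter windows of 14 of the 31 members that have one (45.2%), against 4.38% of all 27305 genes with a window. Counted by window, it was in 16 of the members' 40 (40.0%), against 3.57% of all 35116 windows. The core of the gamma-activated site (GAS), TTCNNNGAA, which reads alike on both strands, was in 8 of the 40 windows (20.0%), against 7.66% of all windows. In 4 windows, those of BST2, IFITM1 and MYD88 and the last of the MX1 windows, matches of both kinds overlapped. The members were listed as interferon genes, so these shares describe the list. The core was found in members on both sides of the background threshold. Among members with a window, 9 of 16 above background in all 3 lines held the ISRE core. So did 3 of 3 above it in only 1 or 2 lines (IFIT1, MX1 and OAS3) and 2 of 11 above it in none (EIF2AK2 and IFIT3). The rest of these 11 were IFNAR1, IRF4, IRF5, IRF8 and Toll-like receptors, so the classes hold different kinds of gene. This split was not made over all genes, and a link between the core and the level was not tested. A match is a stretch of letters, and binding of a factor there was not measured.

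**Figure D1:**
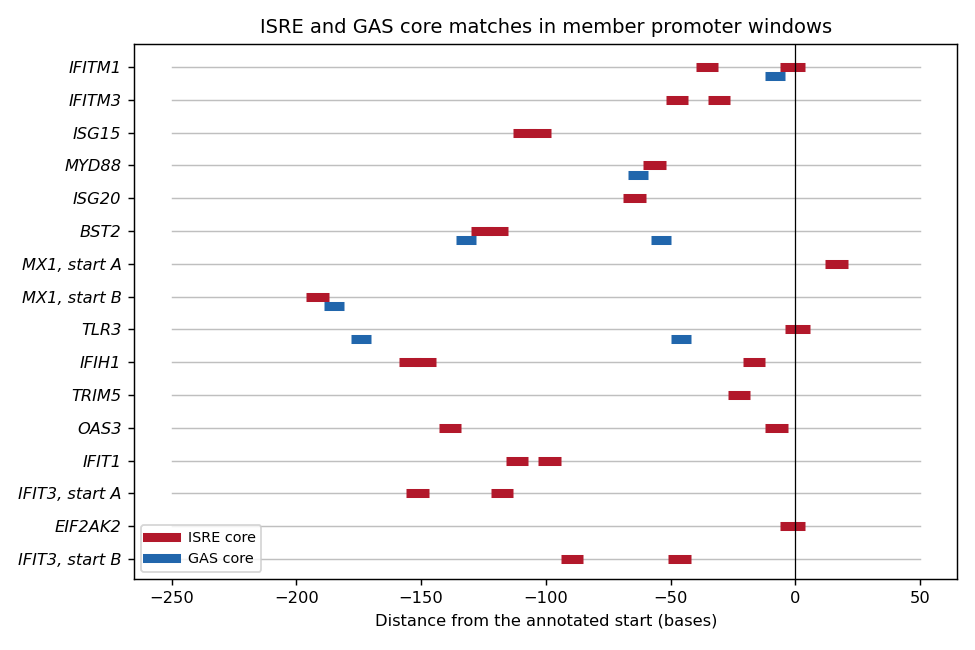
Positions of ISRE core (red) and GAS core (blue) matches in the promoter windows of the 14 members with an ISRE core, as distance in bases from the annotated start; rows are sorted by mean intensity, and A and B mark separate starts of 1 gene. ISRE core matches lie at -113 to -98 in ISG15 and -130 to -115 in BST2, and close to or across the start in IFITM1, EIF2AK2 and TLR3.

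Intensities are quantile-normalised, in the arbitrary units of the deposited table, and each gene is read by the probe with the highest mean. A value was called above background where it passed the 95th percentile of 215 olfactory receptor probes on the same array, which was 13.3 units for ES01, 12.6 for BG03 and 11.2 for H9. To check the label, ES cell markers were read: 7 of 8 measured ones, among them LIN28A, DNMT3B and NANOG, were above background in all lines, and SOX2 was above it in none. Of 9 measured leukocyte markers 0 were above background in any line, with values between -10.4 (CD14) and 9.07 (CSF1R). Of 10 fibroblast markers 4 were above background in all lines and 2 (COL3A1 and POSTN) in none. Their summed level was 1595 in ES01, 1228.5 in BG03 and 1177 in H9. THY1 gave the largest part of each sum, at 824 in ES01, 851 in BG03 and 752 in H9. Which cells of the cultures it came from was not tested, so the sums are no measure of fibroblast content. Each array carried 2089034 to 2102778 beads with a median of 42 beads per bead type, and bead types at the same rank of brightness as a member give the bead standard error (SE) quoted for it, in raw bead units, which covers bead error only. No probe was checked for reading its transcript, so a gene not above background is not shown to be absent.

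Fewer of the members than of genes in general were above background. In all 3 lines 19 of 43 members (44.2%) passed, against 59.8% of all genes. Of the 43, 25 (58.1%) passed in at least 1 line, against 67.8%, and 18 passed in no line, as did 32.2% of all genes. In RNA of whole cultures, fewer cells of a type and less RNA per cell cannot be told apart. By line, 23 of the 43 members passed in ES01, 21 in BG03 and 21 in H9. Of the 16225 genes, 10245 passed in ES01, 10299 in BG03 and 10444 in H9. Most members passed in every line or in none. The other 6 (IFIT1, MX1, MX2, OAS3, APOBEC3B and APOBEC3G) passed in some lines and not in others, as did 1309 of the 16225 genes. The 18 members above background in no line had values between -14.0 (IRF8) and 13.0 (IRF4). With the 99th percentile as background, the count for all 3 lines was 13, against 52.9% of all genes.

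**Figure D2:**
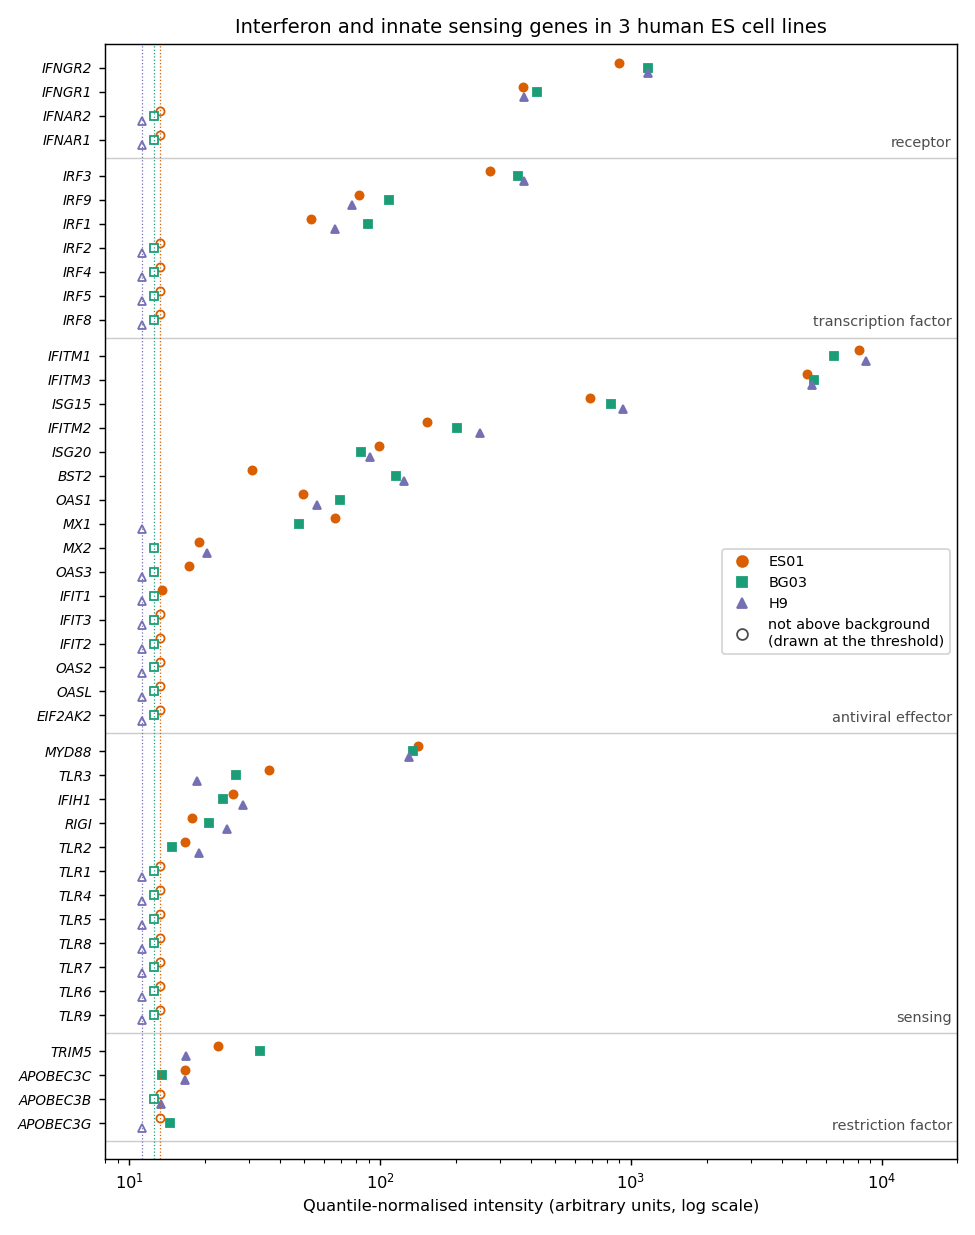
Intensity (log axis) of the 43 measured members in ES01 (circles), BG03 (squares) and H9 (triangles), grouped by role; dotted lines are the background thresholds of the arrays, and open symbols, drawn at the threshold, are values not above it. IFITM1, IFITM3, IFNGR2 and ISG15 lie well above the threshold in every line, most Toll-like receptors sit at it, and BST2 and MX1 are the members with wide gaps between lines.

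The receptor for interferon gamma was above background in every line and that for type I interferons in none. IFNGR1, its ligand-binding chain, measured 372 in ES01, 422 in BG03 and 373 in H9 (log2 SD 0.10, n = 3). The signalling chain IFNGR2 measured 897 in ES01, 1173 in BG03 and 1170 in H9 (log2 SD 0.22, n = 3). Both stood at many times the threshold in each line, and neither differed as much as 1.5-fold between lines. IFNAR1 read 3.47 in ES01, 8.43 in BG03 and 6.37 in H9, and IFNAR2 read -3.0, 1.0 and -4.5 in the same lines. All these values are under the threshold of their array. Those of IFNAR1 in BG03 and H9 lay within 2 bead SE of it, the SE being 2.74 and 2.68 units. Of the kinases that work with these receptors, TYK2 measured 101 in ES01, 139 in BG03 and 169 in H9. JAK1 measured 59.4, 59.1 and 46.9 in the same lines. JAK2 was above background in ES01 (17.4) and barely in BG03 (12.8), and not in H9 (6.07).

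Among the transcription factors, 3 of 7 measured members were above background, in all 3 lines. This is 42.9% of a short list, where the whole array gave 59.8%. IRF3, which is activated by virus sensing and switches on interferon beta, measured 274 in ES01, 356 in BG03 and 375 in H9 (log2 SD 0.24, n = 3). IRF9, the DNA-binding partner of STAT2, measured 82.1 in ES01, 108 in BG03 and 77.6 in H9 (log2 SD 0.26, n = 3). IRF1, itself induced by interferon gamma, measured 53.2 in ES01, 89.5 in BG03 and 66.2 in H9 (log2 SD 0.38, n = 3). BG03 was the highest line for IRF9 and IRF1, and ES01 the lowest for IRF3 and IRF1. The factors of blood and immune cells IRF4, IRF5 and IRF8, and IRF2, which can counter IRF1, were above background in no line. IRF4 came nearest to it, at 13.0 in ES01 against a threshold of 13.3.

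Of 16 antiviral effectors, 7 were above background in all lines, 4 in some and 5 in none. The 7 make 43.8% of the effectors, a smaller share than the 59.8% found over the whole array. Counting effectors that passed in at least 1 line gave 68.8%, close to the 67.8% found over the whole array. IFITM1, like IFITM3 a membrane protein that hinders virus entry, measured 8078 in ES01, 6438 in BG03 and 8642 in H9 (log2 SD 0.22, n = 3). IFITM3 measured 5046 in ES01, 5370 in BG03 and 5253 in H9 (log2 SD 0.05, n = 3). IFITM2 was lower in ES01 than in H9, at 153 in ES01, 203 in BG03 and 250.03 in H9 (log2 SD 0.35, n = 3), which is 1.63-fold between ES01 and H9. These 3 genes lie next to each other on chromosome 11 and are close in sequence, and whether a probe of one also reads another was not tested. ISG15, a ubiquitin-like protein joined to other proteins after interferon, measured 688 in ES01, 831 in BG03 and 931 in H9 (log2 SD 0.22, n = 3). ISG20, an exonuclease acting on RNA, measured 99.3 in ES01, 84.0 in BG03 and 91.6 in H9 (log2 SD 0.12, n = 3). For each of ISG15 and ISG20 the highest line was less than 1.5-fold above the lowest.

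IFIT proteins, which bind viral RNA, and most OAS enzymes, which make the second messenger that activates RNase L, were at background or near it, except OAS1. IFIT2 read between -6.43 and -0.10 and IFIT3 between -6.57 and 2.20 over the lines. IFIT1 passed the threshold in ES01 alone and by only 0.21 units (13.5 in ES01, 4.23 in BG03 and 7.37 in H9), which is far less than its bead SE of 3.12 there. OAS3 also passed in ES01 alone (17.3 in ES01, 6.27 in BG03 and 7.57 in H9), by 4.01 units with a bead SE of 3.23. OAS2, OASL and EIF2AK2, the kinase PKR that halts translation, passed in no line, EIF2AK2 reading 8.23 in ES01, 2.93 in BG03 and 7.10 in H9. MX2, a restriction factor of HIV, measured 19.0 in ES01, 6.07 in BG03 and 20.4 in H9, so that BG03 was the line below background. In ES01 it passed by 5.71 units with a bead SE of 3.32. With the 99th percentile thresholds, 21.4 in ES01, 30.8 in BG03 and 25.2 in H9, MX2 was above background in no line.

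The probes of OAS1 gave different readings. The probe of 1 isoform measured 49.4 in ES01, 69.1 in BG03 and 55.9 in H9, above background in every line. The probe of another isoform read 1.13 in ES01, 3.23 in BG03 and 7.10 in H9, and the probe named for all transcripts read 1.73, 2.73 and 4.73 in the same lines. A call of OAS1 as above background therefore rests on 1 of its 3 probes. For TRIM5, a restriction factor that attacks retroviral capsids, the same holds: 1 isoform probe measured 22.6 in ES01, 33.4 in BG03 and 16.9 in H9, and the other 2 probes were above background in no line. With the all-transcript probe wherever a gene has one, the number of members above background in all lines was 17, OAS1 and TRIM5 being the ones lost.

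**Figure D3:**
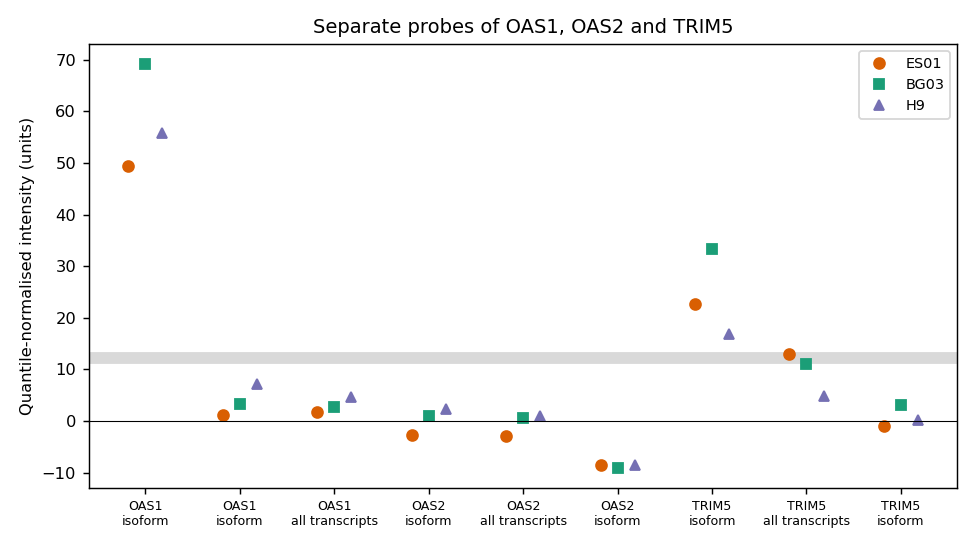
Intensity of each of the 3 probes of OAS1, OAS2 and TRIM5 in ES01, BG03 and H9, named by whether the probe is for 1 isoform or for all transcripts; the grey band spans the thresholds of the arrays, 11.2 to 13.3 units. One isoform probe of OAS1 and 1 of TRIM5 stand above the band in every line, and all other probes lie in or under it.

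Sensing genes were read mainly through the adaptor and the RNA sensors. MYD88, the adaptor shared by most Toll-like receptors, measured 142 in ES01, 135 in BG03 and 129.97 in H9 (log2 SD 0.06, n = 3), the steadiest of the sensing genes. IFIH1 (MDA5) measured 25.8 in ES01, 23.6 in BG03 and 28.6 in H9 (log2 SD 0.14, n = 3). RIGI measured 17.8 in ES01, 20.9 in BG03 and 24.6 in H9 (log2 SD 0.23, n = 3). TLR3, the endosomal receptor of double-stranded RNA, measured 36.2 in ES01, 26.7 in BG03 and 18.7 in H9 (log2 SD 0.48, n = 3), so that ES01 was 1.94-fold above H9. TLR2, a receptor of bacterial lipoproteins, measured 16.7 in ES01, 14.9 in BG03 and 18.9 in H9, near the threshold. The remaining 7 Toll-like receptors, TLR1 and TLR4 to TLR9, were above background in no line, with values between -8.10 and 6.27. Of the sensing genes only MYD88 stayed above background in all lines with the 99th percentile threshold.

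The members APOBEC3B, APOBEC3C and APOBEC3G, restriction factors of a family that edits viral DNA, lay close to background or under it. APOBEC3C was above it in every line, at 16.7 in ES01, 13.5 in BG03 and 16.7 in H9, in BG03 by only 0.88 units with a bead SE of 3.00. APOBEC3G passed in BG03 alone (11.3 in ES01, 14.6 in BG03 and 10.4 in H9). APOBEC3B passed in H9 alone (-2.40 in ES01, 6.77 in BG03 and 13.4 in H9). Over the 129 readings of the 43 members, 22 lay within 2 bead SE of their threshold, from 12 members. Of the 19 members above background in every line, 15 were above it by more than 2 bead SE in each, and TLR2, RIGI, APOBEC3C and TRIM5 were not. These counts are a rough guide, because the SE is in raw bead units and the scaling of the deposited values is not given. The error of the threshold itself is not in them.

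**Figure D4:**
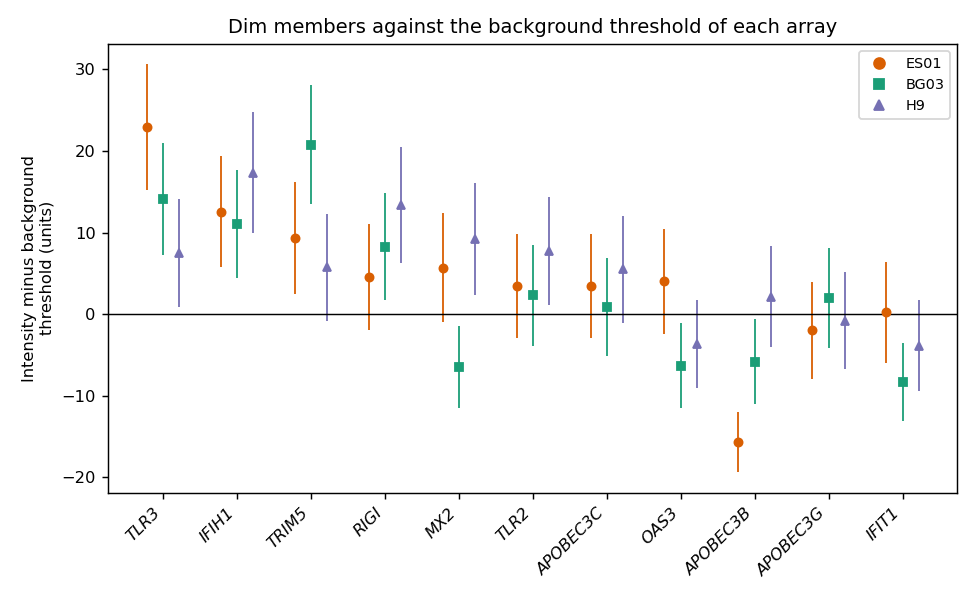
Intensity minus the background threshold of the array for members above background in at least 1 line that read under 45 units in every line, in ES01, BG03 and H9; bars are 2 bead SE either way, in raw bead units, taken from bead types of like brightness, without the error of the threshold. TLR3 and IFIH1 clear the zero line in every line, while the bars of IFIT1 in ES01, APOBEC3B in H9 and APOBEC3G in BG03 cross it.

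Differences between the lines were small for most members, as for most genes, and BST2 and MX1 stood apart. Of the 25 members above background in at least 1 line, 2 (8.0%) differed at least 2-fold between the highest and lowest line, against 8.29% of 11004 genes, so the share was close to that of all genes. Between ES01 and H9, 2 members passed 2-fold, against 5.14% of all genes, with MX1 higher in ES01 (2.9% of all genes were) and BST2 lower (2.24% were). Between ES01 and BG03, BST2 passed, lower in ES01, against 3.75% of all genes in either direction and 1.48% lower. Between BG03 and H9, MX1 passed, higher in BG03, against 3.24% of all genes in either direction and 1.74% higher. Among the 19 members above background in all lines, 14 differed by less than 1.5-fold and 18 by less than 2-fold, counts not made over all genes. Their median log2 SD was 0.22, above the 0.18 over all genes above background in all lines. The median log2 difference of the 25 members was -0.06 for ES01 minus H9 (0.01 for all genes), -0.09 for ES01 minus BG03 (-0.01 for all genes) and 0.00 for BG03 minus H9 (0.03 for all genes).

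BST2 (tetherin), a membrane protein that holds budding viruses on the cell surface, measured 30.8 in ES01, 115 in BG03 and 124.5 in H9 (log2 SD 1.13, n = 3). ES01 was low, 4.04-fold below H9 and 3.74-fold below BG03, while BG03 and H9 lay within 1.08-fold of each other. The bead SE at these levels was 3.72 units in ES01, 6.19 in BG03 and 6.70 in H9, which covers bead error only and holds no spread between cultures, RNA samples or arrays. MX1, a GTPase that blocks virus replication, measured 66.4 in ES01, 47.5 in BG03 and 3.30 in H9, where it was not above background. It was at least 5.925-fold higher in ES01 than in H9 and at least 4.24-fold higher in BG03 than in H9, taking the threshold of H9 as its bound. Its bead SE was 4.90, 4.19 and 2.38 units in ES01, BG03 and H9. ES01 was thus the low line for BST2 and the high line for MX1, and both promoters hold an ISRE core. Each difference rests on 1 array and on 1 probe: leaving out ES01 leaves BST2 within 1.08-fold, and leaving out H9 leaves MX1 at 1.40-fold between ES01 and BG03. With the 99th percentile as background, the bound for MX1 in BG03 over H9 fell under 2-fold. Fibroblast markers also moved between lines, in different directions: 5 of the 8 above background in some line differed at least 2-fold, against 8.29% of all genes. COL1A1, COL1A2 and TWIST1 were highest in ES01. LUM was highest in BG03 (10.1 in ES01, 48.9 in BG03 and 10.1 in H9) and DCN in H9 (26.4 in ES01, -0.60 in BG03 and 30.5 in H9). The sum of the list was highest in ES01, where COL1A2 read 582, against 229 in BG03 and 310 in H9. Of 4 endothelial markers, 2 were above background in all lines, 1 in some and CDH5 in none, and their sum was 208 in ES01, 96.95 in BG03 and 99.9 in H9. TEK was highest in ES01 (162 in ES01, 48.2 in BG03 and 29.4 in H9) and VWF in H9 (27.5 in ES01, 24.3 in BG03 and 58.3 in H9). The part of either marker list in the BST2 and MX1 differences was not tested.

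**Figure D5:**
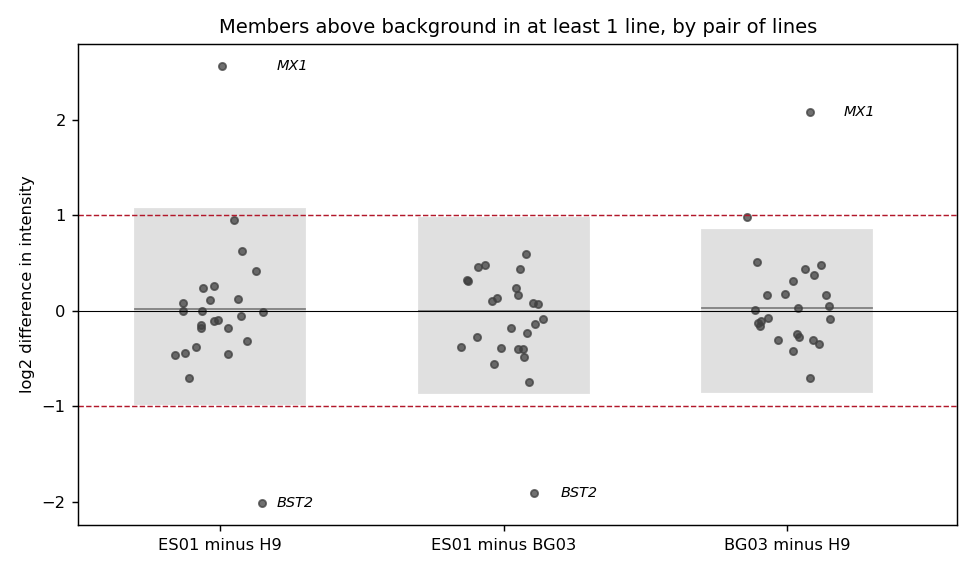
Log2 difference in intensity for the 25 members above background in at least 1 line (points), for ES01 minus H9, ES01 minus BG03 and BG03 minus H9; grey boxes hold the central 95% of 11004 genes, the line in each is their median, and dashed lines mark 2-fold. BST2 lies near -2 in both differences of ES01, MX1 lies above 2 in both differences from H9, and all other members stay inside the dashed lines.

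From a list of 74 other genes of the pathway, 68 were measured. Of these 37 (54.4%) passed the threshold in all 3 lines, 59.8% being the share of all genes. Of 7 interferon genes, IFNA1, IFNA2, IFNB1, IFNE, IFNK and IFNL1 were above background in no line. IFNG, the gene of interferon gamma, was dim, at 23.7 in ES01, 18.6 in BG03 and 6.67 in H9, the last not above background. This made IFNG at least 2.11-fold higher in ES01 than in H9. With the 99th percentile as background, the H9 threshold (25.2) passed the ES01 value and this bound was lost. Negative regulators passed in all lines for 5 of 6 (among them SOCS1, an inhibitor of JAK kinases), and SOCS3 passed in none. All 3 NF-kB genes passed (IKBKG, NFKB1 and RELA), as did 10 of 19 sensing adaptors and kinases, TBK1 and IRAK1 among them. The cytosolic DNA sensor CGAS and its partner STING1 passed in no line. Of 24 other interferon targets 13 passed in all lines, including ADAR, HERC5 and IFI6, and 11 in none, including IFI27, IFI44, GBP1 and CXCL10. TRIM22, a restriction factor, was the other gene of the list past 2-fold, at 441 in ES01, 195 in BG03 and 137 in H9. ES01 was 3.23-fold above H9 (2.9% of all genes were at least 2-fold higher there) and 2.26-fold above BG03 (2.27% were). In all, 2 of the 42 list genes above background in some line (4.76%) differed at least 2-fold, against 8.29% of all genes.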

How the data were processed

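Total RNA of ES01, BG03 and H9 was extracted with TRIzol and labelled with Cy3 for Illumina whole-genome arrays, per the labels' protocols. In the deposited values each probe has an intensity per array (47293 probes). These are linear, and 26.3% (ES01), 32.8% (BG03) and 33.8% (H9) are below 0, so background had been subtracted. Software and scaling used by the authors: not given in the sources used here. The deposited bead files hold 1 green intensity per bead with no gene names, per the file headers, and served for bead error only: outlying beads (more than 3 median absolute deviations off, 0.534% to 0.583% of beads) were dropped, and the median SE of the 501 bead types around the same rank of brightness was taken.

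Probes were named through the platform annotation and gene IDs (18468 named, 28825 unnamed here, 0 with several symbols), with current symbols from RefSeq (GRCh38.p14). All probes but 4 bacterial controls were quantile-normalised with limma 3.58.1 in R 4.3.3 (the data.table package, version 1.17.8); Python 3.11.15, numpy 2.4.6, pandas 2.3.3 and matplotlib 3.10.9 did the rest. Values under the threshold of an array were set to it before log2, and a gene entered the differences if any line had it above background. With 1 array per line there is no test between lines. Counting at 2-fold was tested on simulated data with changes placed in bright genes only. Dim genes, and bounds such as that of MX1 in H9, were not covered. All 43 measured members are named, with values in every line where above background; of the other list genes, those past 2-fold and the receptor kinases have values, and their further examples were picked after values were seen. The members and lists were chosen with earlier results of these data known. Alternatives covered normalization, background, probe rule, floor, filter, fold and leaving out each line; the all-transcript probe was added after seeing the data.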

Additional observations from a re-analysis of the deposited data

How the results depend on the processing

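The number of members above background in all lines was 13 to 20 under the alternatives run, and that in at least 1 line 17 to 26. The share of all genes moved too. With the 99th percentile background the counts were 13 (52.9% of all genes) and 17 (59.2%). With a second set of background probes they were 20 (60.9%) and 26 (70.4%). Leaving out each line in turn, and counting over the remaining lines, gave 19 to 20 (60.7% to 61.3% of all genes) and 23 to 24 (65.9% to 66.6%). When array medians were made equal, the median of all genes was -0.27 for ES01 minus H9 (0.01 before) and -0.34 for ES01 minus BG03 (-0.01 before). The members' medians were then -0.34 and -0.37, and 2 members passed 2-fold between ES01 and BG03, the added one being IRF1, against 5.52% of all genes. Between ES01 and H9 3 passed, IFITM2 being added, against 7.21% of all genes. Without the filter on dim genes the members' median for ES01 minus H9 was 0.24, as for all genes, because genes below background in both lines then differ by the floors. The count past 2-fold between BG03 and H9 was 0 with the 99th percentile background, with a floor of 50 units and when only genes passing in every line were used, and that between ES01 and H9 was 1 with the last 2 settings; each time MX1 was the gene lost, since its level in H9 is only a bound. At 1.5-fold the counts were 5 for ES01 and H9 (16.3% of all genes passed), 3 for ES01 and BG03 (13.5%) and 3 for BG03 and H9 (11.9%). For BST2 the log2 difference ranged from -2.34 to -1.32 for ES01 minus H9 and from -2.24 to -1.21 for ES01 minus BG03, and for MX1 from 0.41 to 2.89 for ES01 minus H9 and from 0.00 to 2.41 for BG03 minus H9. Signal over background limits the dim members, and 1 array per line limits every difference.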

Other observations

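Among the listed genes that are no members, APOBEC3A and SP100 were picked after their values were seen. APOBEC3A, a DNA-editing enzyme of myeloid cells, read 10262 in ES01, 9013 in BG03 and 9383 in H9. Of its other listed relatives, APOBEC3F was above background in all lines (39.5 in ES01, 30.9 in BG03 and 46.2 in H9), and APOBEC3D and APOBEC3H in none. The 9 measured leukocyte markers were above background in no line. SP100, a nuclear body protein induced by interferon, read 9649 in ES01, 9649 in BG03 and 9243 in H9. PML, the scaffold of the same bodies, was above background in no line by the probe used. APOBEC3A and SP100 are each read by 1 probe and PML by 2, and what these probes read was not tested.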
